A study of Mus musculus with 4 samples.

Results

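The mouse genes Cxcl1, Cxcl2, Cxcl3, Cxcl5 and Cxcr2 were picked by gene symbol from the count matrices of a single-cell RNA study of the heart. They are 5 of the 32285 genes in the matrices. The rule that picked them used no measured value, though earlier results of these data were known. There were 4 libraries of dissociated mouse heart, 1 for each group, made with a droplet kit that counts molecules at the 3' end of polyadenylated RNA. The groups were control (labelled only as such), sham (labelled only as such), sepsis by cecal ligation and puncture (CLP), in which the cecum is tied off and pierced so that gut bacteria enter the abdomen, and the same sepsis together with low-level tragus stimulation, an electrical stimulation of the ear in the territory of the auricular vagus nerve. The treatment label of that last library gives the stimulation alone, and the sepsis stands in its title. Strain, age, number of animals, time after the operation and the stimulation schedule do not appear in the labels. The series title speaks of septic heart dysfunction and macrophage polarization, so the comparisons of interest were CLP with sham and CLP plus stimulation with CLP, with sham against control as the background. With 1 library per group no comparison has a replicate check. Intervals printed here are 95% intervals of counting error only, no test was made, and a difference between libraries cannot be told apart from a difference between animals or preparations.

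Cxcl1, Cxcl2, Cxcl3 and Cxcl5 are small secreted CXC chemokines that carry a glutamate-leucine-arginine motif ahead of their paired cysteines, the feature that lets this branch of the family act on neutrophils. Their shared receptor is CXCR2, a G protein coupled receptor on neutrophils. Ligands shown on the vessel wall activate neutrophil integrins and direct cells out of the blood, while the receptor is internalised once it is occupied. The chemokine genes are classic targets of NF-kappaB downstream of Toll-like receptors, interleukin 1 and tumour necrosis factor. Their messages carry AU-rich elements that make them short-lived. CXCR2 and CXCR4 act in opposite directions on the release of neutrophils from bone marrow.

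All 5 genes are annotated as protein coding on the plus strand of GRCm38. The 4 ligands lie together on chromosome 5 within 146.6 kb, in the order Cxcl5 (ENSMUSG00000029371, chr5:90759360-90761624), Cxcl3 (ENSMUSG00000029379, chr5:90786103-90789600), Cxcl1 (ENSMUSG00000029380, chr5:90891241-90893115) and Cxcl2 (ENSMUSG00000058427, chr5:90903871-90905938). Cxcr2 (ENSMUSG00000026180, chr1:74153989-74161246) lies on chromosome 1. RefSeq promoters matched 4 of the 5 members, all but Cxcl5. The 100 bases before the start are shown because Cxcl1, Cxcl2 and Cxcl3, which differ in the cells that held them, carry the same NF-kappaB consensus at nearly the same place. Capitals mark that consensus on both strands, which overlap, and a TATA box (TATAAA). Sequences are RefSeq, GRCm38.p6, plus strand, 5' to 3', and end just before the earlier of the RefSeq and GENCODE starts.
Cxcl1, chr5:90891141-90891240: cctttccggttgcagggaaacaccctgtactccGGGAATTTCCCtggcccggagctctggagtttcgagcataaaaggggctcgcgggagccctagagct
Cxcl2, chr5:90903771-90903870: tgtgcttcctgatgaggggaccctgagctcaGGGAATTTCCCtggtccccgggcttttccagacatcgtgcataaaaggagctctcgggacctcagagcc
Cxcl3, chr5:90786001-90786100: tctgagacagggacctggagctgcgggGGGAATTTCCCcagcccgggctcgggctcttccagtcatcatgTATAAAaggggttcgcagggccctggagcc
Cxcr2, chr1:74153889-74153988: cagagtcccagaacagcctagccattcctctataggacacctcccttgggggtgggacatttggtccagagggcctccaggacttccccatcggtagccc

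The search covered 250 bases on both strands. The plus-strand NF-kappaB match began 67 bases before the start of Cxcl1, 69 before Cxcl2 and 73 before Cxcl3, and in each it read GGGAATTTCC. The NF-kappaB consensus occurred in 7.25% of 32851 promoters of the same length, and the exact 10 letters shared by the 3 ligands, a form chosen after it was seen, in 28 of them (0.0852%). TATAAA was found in Cxcl3 alone among the 4 promoters, 30 to 25 bases before the start, and in 12.4% of all promoters. A glucocorticoid-element-like ACANNNTGT lay 81 bases before the start of Cxcl1 (5.84% of promoters hold one), and a C/EBP-like TTNNGNAA lay 208 bases before that of Cxcl2 (36.8%). The AP-1 sequence TGANTCA (6.75%) was in none of the 4, and the Cxcr2 window held none of the 5 motifs. A match is a run of letters, not a shown binding site.

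The libraries held 54611436 to 59465046 UMIs (unique molecules) over 8741 to 15964 barcodes, and 37540 cells were kept, with a median of 2996 UMIs per cell in control and 4919 to 5456 in the others. Cells were put in classes by a gate on marker genes that holds none of the 5 members, and 81.3% of the kept cells passed it. The rest were not classed, 12.5% to 18.2% of cells in the first 3 libraries and 32.6% in CLP plus stimulation, whose unclassed cells had a median of 1339 UMIs. The libraries are labelled as all cells of the heart, yet cardiomyocyte-like cells made up only 0.761% to 3.41% of kept cells. A class often came from different clusters in different libraries. Cluster 26 supplied most neutrophil-like cells of control and sham, and cluster 16 most of those in both CLP libraries. Fibroblast-like cells divided between clusters 0 and 3 in the same way. For endothelial-like cells the largest cluster was 4 (control, sham), 8 (CLP) or 15 (CLP plus stimulation). Cluster 9 supplied 84.6% of macrophage-like cells with CLP, and cluster 5 supplied 72.1% with CLP plus stimulation. Control and sham shared the macrophage clusters 1 and 2. Cluster 1 held 1535 control and 1260 sham cells, and cluster 2 held 1440 and 1314. Barcodes found in more than 1 library numbered 62 to 108 kept cells per library. B cell-like, T or NK cell-like and cardiomyocyte-like cells, which are not known as main sources of these ligands, serve below as a reading of free RNA in the droplets. Levels are given as CPM, the UMIs of the gene scaled to a class total of 1000000. Each captured transcript counts about once whatever its length, so levels of different genes can be set side by side, apart from differences in capture.

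The members divided by cell class. Cxcl1 was mainly a fibroblast-like message and Cxcl2 a message of macrophage-like and neutrophil-like cells; Cxcl3 was found in the same myeloid classes at a far lower level, Cxcl5 in a few fibroblast-like cells, and Cxcr2 in neutrophil-like cells. Over whole libraries, in the order control, sham, CLP and CLP plus stimulation, Cxcl2 stood at 3411, 4249, 4149 and 12163 CPM and Cxcl1 at 312.9, 394.4, 529.3 and 624.1. Cxcl3 stood at 5.13, 7.82, 11.6 and 90.5 CPM, Cxcl5 at 1.34, 2.69, 10.5 and 21.5, and Cxcr2 at 1.17, 4.36, 6.45 and 4.46. The ligands were thus highest in CLP plus stimulation, while the receptor was highest in CLP. In sham over control no member with at least 20 UMIs was 2-fold apart in any of the 4 large classes, where 1.70% of genes were at least 2-fold higher and 1.71% lower in macrophage-like cells, 3.24% and 6.70% in neutrophil-like, 0.971% and 1.24% in fibroblast-like and 1.22% and 1.09% in endothelial-like cells. In CLP plus stimulation over sham, 4 of 5 measured members were at least 2-fold higher in macrophage-like cells and 1 lower (8.23% and 21.7% of genes). The counts were 0 higher and 1 lower of 4 in neutrophil-like cells (24.6% and 13.0%), 3 and 0 of 4 in fibroblast-like cells (7.29% and 25.0%), and 2 and 0 of 2 in endothelial-like cells (8.57% and 23.7%). The whole-library values move with cell composition as well as with the level per cell, so the classes are taken one by one.

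**Figure D1:**
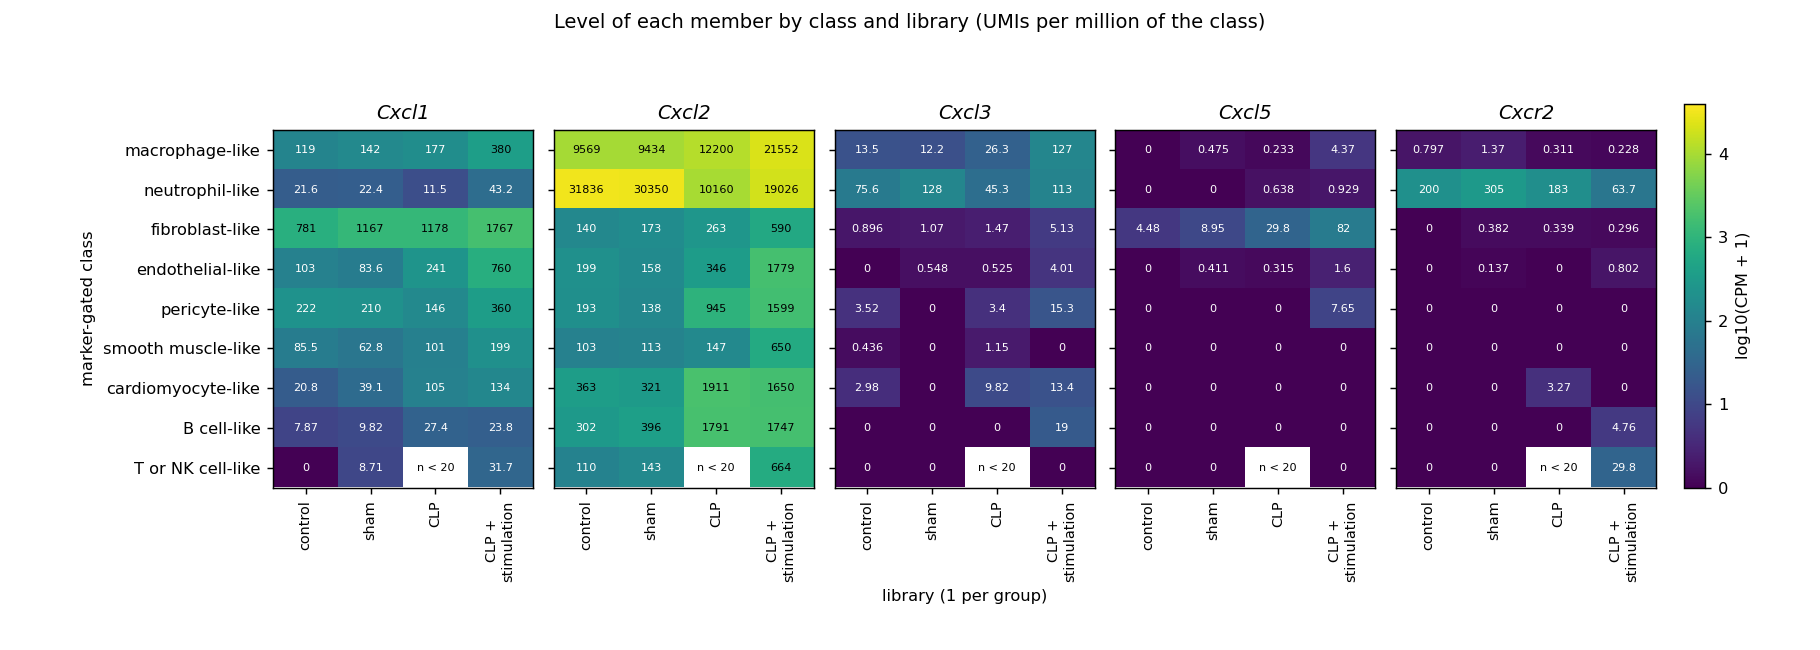
Level of the 5 genes by marker-gated class (rows) and library (columns, 1 per group), as log10(CPM + 1) of the summed UMIs. Cxcl2 is high in macrophage-like and neutrophil-like rows in all 4 libraries (9434 CPM or more), Cxcl1 in the fibroblast-like row (781 to 1767 CPM), and Cxcr2 in the neutrophil-like row (63.7 to 305 CPM).

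**Figure D2:**
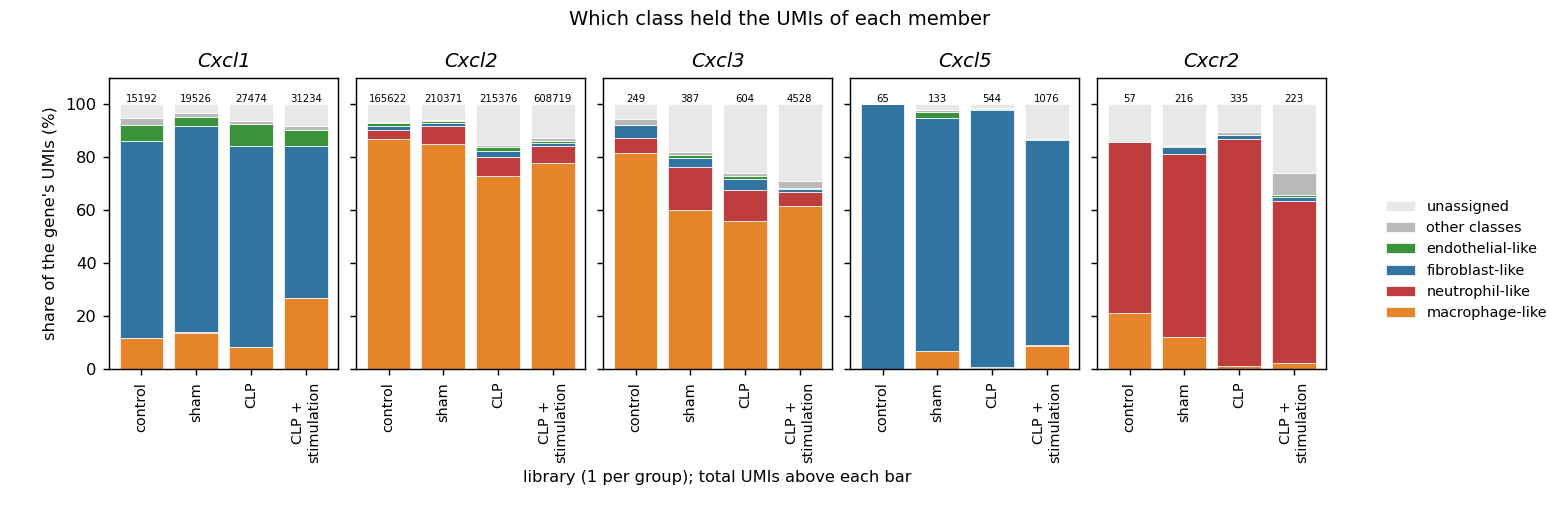
Share of each gene's UMIs, in percent, that lay in each class, by library, with the gene's total UMIs above the bar. Fibroblast-like cells held 74.6%, 78.2%, 76.0% and 57.4% of Cxcl1, and macrophage-like cells held 87.0%, 84.9%, 72.8% and 77.7% of Cxcl2.

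Cxcl1, a ligand that stromal and endothelial cells make on inflammatory signals, was highest in fibroblast-like cells. It stood at 781 CPM in control, 1167 in sham, 1178 with CLP and 1767 with CLP plus stimulation, from 11331 to 20866 UMIs. Sham and CLP were alike and CLP plus stimulation stood above both. The log2 ratio was 0.58 for sham over control (0.54 to 0.61), 0.01 for CLP over sham (-0.02 to 0.04) and 0.58 for CLP plus stimulation over CLP (0.56 to 0.61). The step from control to sham was thus as large as the step from CLP to CLP plus stimulation. Shares of fibroblast-like cells with a Cxcl1 UMI were 62.8%, 77.9%, 75.2% and 78.0%. With cells thinned to 1000 UMIs, and shallower cells left out, they were 40.1%, 49.9%, 44.5% and 55.7%. B cell-like cells, at a median depth of 1768 to 3603 UMIs against 4479 to 8744 in fibroblast-like cells, gave thinned shares of 0.746%, 0.730%, 0 of 24 cells in CLP (which allows up to 12.5%) and 4.17%. On this background Cxcl1 was a broad message of fibroblast-like cells, present in control hearts too. In CLP over sham, 1 of the 4 members measured in this class (at least 20 UMIs in the libraries compared) was at least 2-fold higher, against 3.72% of all genes, and none was 2-fold lower, against 7.51%. Between CLP plus stimulation and CLP, 3 of 4 were at least 2-fold higher, against 4.78% of genes, and again none lower, against 17.0%. Cxcl1 itself was in neither count. The 3 were Cxcl2, Cxcl3 and Cxcl5. In CLP plus stimulation fibroblast-like cells held Cxcl2 at 590 CPM, below cardiomyocyte-like (1650), B cell-like (1747) and T or NK cell-like cells (664). Their Cxcl3, at 5.13 CPM, was below cardiomyocyte-like (13.4, from 1 UMI) and B cell-like cells (19.0, from 8 UMIs), while T or NK cell-like cells held 0. The part of free RNA in these 2 genes was not tested.

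Cxcl1 differed more between libraries in endothelial-like than in fibroblast-like cells, a difference that was not tested. It stood at 103 CPM in control, 83.6 in sham, 241 with CLP and 760 with CLP plus stimulation, so that both CLP libraries lay above both others. Its log2 ratio was 1.53 for CLP over sham (1.40 to 1.66) and 1.66 for CLP plus stimulation over CLP (1.57 to 1.75), or 9.09-fold from sham to CLP plus stimulation. Sham over control ran the other way, at -0.31 (-0.46 to -0.16). The class held 3079, 1536, 1918 and 517 cells, or 22.7%, 18.6%, 24.8% and 6.45% of kept cells. It was thus smallest in CLP plus stimulation, and the part of cell recovery in the ratios was not tested. With cells thinned to 1000 UMIs, 6.59%, 4.71%, 13.8% and 34.3% of endothelial-like cells held a Cxcl1 UMI, above the B cell-like shares given before. Cardiomyocyte-like cells gave 1.22%, 1.49%, 6.12% and 17.4%, and so were higher in the same libraries but below the endothelial-like share in each. Their median depth was 746 to 867 UMIs, so most of them fell under 1000 UMIs and were left out of thinning. The 17.4% therefore rests on a minority of only 61 cells and is imprecise. Both Cxcl1 and Cxcl2, the only members measured here, were at least 2-fold higher in each CLP comparison, against 4.62% of genes in CLP over sham and 9.20% in CLP plus stimulation over CLP. None was 2-fold lower, against 6.47% and 19.6%. Fibroblast markers in the endothelial-like class, all 10 of 10 detected, summed to 307, 258, 318 and 412 CPM, at most 1.31% of their own class, and macrophage markers to 377, 356, 211 and 222 CPM, at most 2.10%. These sums were flat or moved by less than Cxcl1 did, and their part in the difference was not tested. Cells with a UMI of Ackr1, Selp or Vwf, genes of venules and large vessels (a split made after the data were seen), held Cxcl1 at 127, 118, 382 and 788 CPM, against 101, 79.5, 220 and 756 in the others. The higher level in CLP was therefore present in endothelial-like cells with and without these genes.

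Macrophage-like cells held Cxcl1 at 119, 142, 177 and 380 CPM. On the log2 scale the ratio was 0.26 for sham over control, 0.32 for CLP over sham and 1.10 for CLP plus stimulation over CLP (1.03 to 1.17), and their share of all Cxcl1 UMIs was 11.8%, 13.8%, 8.28% and 26.7%. Fibroblast markers in this class, all 10 of 10 detected, summed to 328, 319, 281 and 230 CPM. That was 0.74%, 0.65%, 0.80% and 0.73% of their level in fibroblast-like cells, and their part in the result was not tested. A Cxcl1 UMI was held by 14.8%, 16.6%, 28.5% and 36.7% of macrophage-like cells, at median depths of 3443, 5804, 7320 and 7379 UMIs. After thinning the shares were 7.83%, 7.47%, 9.83% and 17.8%, above the B cell-like shares given before in control, sham and CLP plus stimulation. In that last library the share lay near the 17.4% of cardiomyocyte-like cells, itself imprecise because few of those cells were deep enough to thin. Macrophage-like cells with a Cxcl1 UMI held more Cxcl2 too, at 14080, 13175, 14304 and 24424 CPM against 8506, 8471, 11091 and 19587 in those without. Pericyte-like cells held Cxcl1 at 222, 210, 146 and 360 CPM from 38 to 63 UMIs, and CLP over sham there was within counting error (-1.19 to 0.15 on the log2 scale). Neutrophil-like cells had only 4, 11, 18 and 93 UMIs of it, at 21.6, 22.4, 11.5 and 43.2 CPM, near the B cell-like level of 7.87, 9.82, 27.4 and 23.8 CPM.

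Cxcl2, made by activated macrophages and by neutrophils themselves, was among the most abundant messages of both classes. In macrophage-like cells it stood at 9569 CPM in control, 9434 in sham, 12200 with CLP and 21552 with CLP plus stimulation, ranking 8, 7, 6 and 3 among all genes of the class. Control and sham were alike, CLP stood a little above them, and CLP plus stimulation stood highest. The log2 ratio was -0.02 for sham over control (-0.03 to -0.01), 0.37 for CLP over sham (0.36 to 0.38) and 0.82 for CLP plus stimulation over CLP (0.81 to 0.83). The median cell moved the same way, with 52.2, 55.2, 84.7 and 165 Cxcl2 UMIs per 10000 UMIs. The share of cells with a Cxcl2 UMI was 86.0%, 89.8%, 95.2% and 98.4%, and 82.2%, 80.4%, 86.9% and 93.6% after thinning. So Cxcl2 was found in most macrophage-like cells of all 4 libraries, control included, and the upper tail was highest in CLP plus stimulation, where the 90th percentile of cells lay at 460 per 10000 against 225 in control. Of the 4 members measured in macrophage-like cells, 1 was at least 2-fold higher in CLP than in sham (Cxcl3), against 5.06% of genes, and 1 at least 2-fold lower (Cxcr2, from 26 and 4 UMIs), against 18.0%. From CLP to CLP plus stimulation, 3 of 4 were at least 2-fold higher (Cxcl1, Cxcl3 and Cxcl5), against 8.72% of genes, and none lower, against 8.74%.

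**Figure D3:**
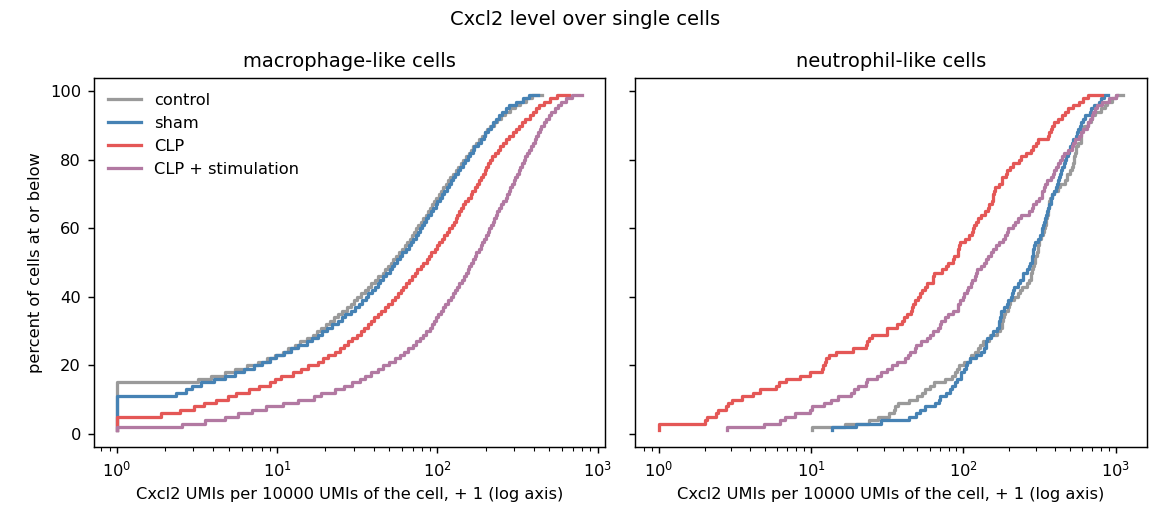
Cxcl2 UMIs per 10000 UMIs of the cell, plus 1 (log axis), against the percent of cells at or below that level, for macrophage-like (left) and neutrophil-like (right) cells, 1 line per library. In macrophage-like cells the CLP plus stimulation line lies to the right (median 165, against 52.2 in control), and in neutrophil-like cells control and sham lie to the right (medians 294 and 280, against 84.1 in CLP).

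Both resident-type and other macrophage-like cells took part. Cells with a UMI of Timd4, Lyve1 or Folr2, markers of long-lived tissue-resident macrophages, held Cxcl2 at 9058, 8883, 10685 and 19153 CPM, and the others at 10904, 10966, 14590 and 24137. The first kind made up 66.4%, 68.8%, 49.2% and 43.1% of macrophage-like cells, so the mix shifted as well. CLP and CLP plus stimulation stood above control and sham in each kind. Cells with a UMI of Ccr2, the receptor carried by monocyte-derived macrophages, stood lower, at 8064, 7881, 8782 and 12891 CPM. Both splits were made after the data were seen and depend on depth, since a deeper cell is more likely to show any 1 gene. Neutrophil markers in the macrophage-like class summed to 96.8, 195, 1060 and 1385 CPM, at most 0.576% of their own class, and so were higher in the same libraries as Cxcl2, and their part in the result was not tested.

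Neutrophil-like cells, at 125, 177, 201 and 285 cells (0.922%, 2.15%, 2.60% and 3.55% of kept cells), went another way. Cxcl2 stood at 31836 CPM in control, 30350 in sham, 10160 with CLP and 19026 with CLP plus stimulation, and was the 4th most abundant gene in control and sham. The 2 CLP libraries lay below the other 2. As log2 ratios, these were -0.07 for sham over control, -1.58 for CLP over sham (-1.61 to -1.55) and 0.91 for CLP plus stimulation over CLP (0.88 to 0.93). Median levels were 294, 280, 84.1 and 139 per 10000 UMIs. Of the 4 members measured in this class, none was 2-fold higher in CLP than in sham, against 12.7% of genes, and 2 were at least 2-fold lower (Cxcl2 and Cxcl3), against 14.7%. From CLP to CLP plus stimulation, 2 were at least 2-fold higher (Cxcl1 and Cxcl3), against 14.5%, and 1 at least 2-fold lower (Cxcr2), against 5.09%.

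The neutrophil-like cells of the CLP libraries differed from those of control and sham in their granule genes. Camp and Ltf encode secondary granule proteins and are transcribed before neutrophils mature. A UMI of either was present in 5 of 125 cells in control, 1 of 177 in sham, 128 of 201 with CLP and 190 of 285 with CLP plus stimulation. Ngp, another granule gene of immature neutrophils, stood at 1577, 79.3, 9496 and 27238 CPM, and Csf3r, the receptor for granulocyte colony-stimulating factor, at 1383, 1350, 156 and 84.1. Median depth differed as well, at 1431, 2607, 6270 and 6307 UMIs per cell. In cells with neither Camp nor Ltf, Cxcl2 stood at 33390, 30264, 20470 and 44545 CPM, so that CLP over sham narrowed to a log2 ratio of -0.56 and CLP plus stimulation over CLP was 1.12. In cells with either gene Cxcl2 stood at 7647 in CLP and 13395 in CLP plus stimulation, below the cells without, and the median depth of these cells was 8466 and 8460 UMIs against 3230 and 4238. The split was chosen after the data were seen.

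**Figure D4:**
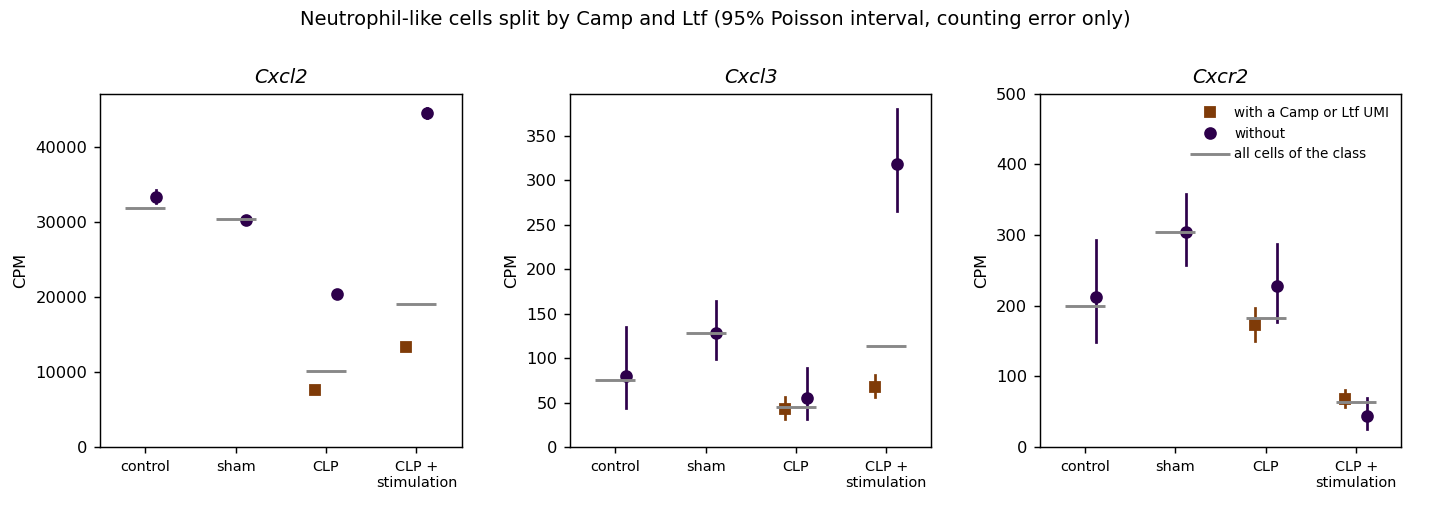
CPM of Cxcl2, Cxcl3 and Cxcr2 in neutrophil-like cells with and without a UMI of Camp or Ltf, by library, with 95% Poisson intervals for counting error, and the level over all cells of the class as a grey bar. In the CLP and CLP plus stimulation libraries Cxcl2 was lower in cells with Camp or Ltf (7647 and 13395) than in cells without (20470 and 44545).

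Outside these classes Cxcl2 was lower, and the classes that serve as background differed among themselves. B cell-like cells held it at 302, 396, 1791 and 1747 CPM, cardiomyocyte-like cells at 363, 321, 1911 and 1650, and T or NK cell-like cells at 110, 143, 106 (13 cells) and 664. In B cell-like cells a single cell carried 118 of the 131 UMIs in CLP and another 305 of the 734 in CLP plus stimulation, and without the top cell the class stood at 188 and 1113 CPM there. Endothelial-like cells stood at 199, 158, 346 and 1779 CPM, above T or NK cell-like cells in each library, though within counting error in sham. They lay below B cell-like and cardiomyocyte-like cells in control and sham, below cardiomyocyte-like cells in CLP, and close to both in CLP plus stimulation. Their ratio of CLP plus stimulation over CLP was 5.15-fold. After thinning, 56.3% of endothelial-like cells held a Cxcl2 UMI in CLP plus stimulation (51.5% to 61.0%), against 40.3% of B cell-like cells (28.9% to 52.5%) and 31.0% of T or NK cell-like cells. In CLP the shares were 20.1% and 20.8% for endothelial-like and B cell-like cells. Cardiomyocyte-like cells of CLP plus stimulation, 61 cells at a median depth of 746 UMIs, were mostly too shallow to thin. On the per-cell scale used for macrophage-like cells, their median Cxcl2 level was 14.6, against 9.14 in endothelial-like cells. The upper quartiles were 20.6 and 23.8. Endothelial-like cells thus did not stand clearly above this background class, and the part of free RNA was not tested. Fibroblast-like cells stood at 140, 173, 263 and 590 CPM, under cardiomyocyte-like cells in each library but above T or NK cell-like cells in CLP, and within counting error of them in control and sham. Unclassed cells stood at 1945, 1979, 4113 and 7527 CPM. Monocyte-like cells reached 50 cells only in CLP plus stimulation, where Cxcl2 stood at 4458 CPM in 56 cells.

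Cxcl3, a close relative of Cxcl1 and Cxcl2, followed the myeloid classes. In macrophage-like cells it gave 203, 232, 338 and 2790 UMIs, or 13.5 CPM in control, 12.3 in sham, 26.3 with CLP and 127 with CLP plus stimulation. CLP plus stimulation stood well above the other libraries. Log2 ratios were -0.14 for sham over control (-0.42 to 0.14), 1.10 for CLP over sham (0.86 to 1.35) and 2.27 for CLP plus stimulation over CLP (2.11 to 2.44). Only 2.37%, 3.77%, 6.57% and 11.2% of macrophage-like cells held a UMI of it, and 0.748%, 0.930%, 1.12% and 4.87% after thinning. Between sham and CLP the thinned shares differed by less than their intervals (0.614% to 1.35% and 0.655% to 1.79%). Cells with a Cxcl3 UMI held Cxcl2 at 16720, 15225, 13493 and 23834 CPM, against 9285, 9092, 12070 and 21173 in those without. They held Cxcl1 at 316, 391, 467 and 461 CPM against 111, 128, 148 and 367. A macrophage-like cell with a Cxcl3 UMI thus held more of the other two. These were also the deeper cells, at a median of 4512, 7430, 10241 and 8498 UMIs against 3423, 5742, 7140 and 7258, and the part of depth was not tested. In CLP plus stimulation, macrophage-like cells with a UMI of Ccr2 held Cxcl3 at 286 CPM and the others at 114, the reverse of the order for Cxcl2.

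In neutrophil-like cells Cxcl3 gave 14, 63, 71 and 244 UMIs, at 75.6, 128, 45.3 and 113 CPM. As with Cxcl2, CLP was the lowest library. Its log2 ratio was -1.50 for CLP over sham (-2.01 to -0.99) and 1.32 for CLP plus stimulation over CLP (0.94 to 1.73). The cells without Camp or Ltf held Cxcl3 at 80.3, 129, 55.4 and 319 CPM, from 14 to 124 UMIs. Restricted to cells of at least 3000 UMIs the CLP over sham ratio was only -0.20. No B cell-like or T or NK cell-like cell held Cxcl3 in control, sham or CLP, which in B cell-like cells allows shares of up to 1.90%, 2.14% and 12.5%. In CLP plus stimulation B cell-like cells held 8 UMIs of it (19.0 CPM) and T or NK cell-like cells 0. Cardiomyocyte-like cells held 1, 0, 3 and 1 UMIs over the 4 libraries, or 2.98, 0, 9.82 and 13.4 CPM. The background of Cxcl3 was thus low but not absent in the CLP libraries. Fibroblast-like cells stood at 0.896, 1.07, 1.47 and 5.13 CPM. Unclassed cells held 29.0% of all Cxcl3 UMIs in CLP plus stimulation, at 130 CPM, as high as the macrophage-like cells.

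Cxcl5, a ligand made by epithelial and stromal cells, had the lowest level of the 4 ligands over each whole library. Fibroblast-like cells held 100%, 88.0%, 97.1% and 77.3% of its UMIs. The counts there were 65, 117, 528 and 832 UMIs, or 4.48 CPM in control, 8.95 in sham, 29.8 with CLP and 82.0 with CLP plus stimulation. Each library stood above the one before. Its log2 ratio was 0.99 for sham over control (0.55 to 1.46), 1.73 for CLP over sham (1.45 to 2.04) and 1.46 for CLP plus stimulation over CLP (1.30 to 1.62). Those UMIs came from 39, 51, 73 and 125 cells, and in CLP 1 cell held 103 of the 528. After thinning, 0.467%, 0.981%, 1.13% and 4.19% of fibroblast-like cells held a Cxcl5 UMI, so the share of cells differed little between sham and CLP and was highest in CLP plus stimulation. The log2 ratio of CLP over sham on thinned cells was 0.80. No B cell-like or cardiomyocyte-like cell held a UMI in any library, which in cardiomyocyte-like cells allows shares of up to 1.37%, 1.41%, 1.14% and 4.92%. In the fibroblast-like class, markers of mesothelial cells summed to 0.76 to 2.07 CPM.

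Cxcl5 stood higher in fibroblast-like cells without adventitial markers than in those with them. Cells with a UMI of Pi16 or Dpp4, markers of adventitial fibroblasts, held Cxcl5 at 2.42, 3.66, 27.7 and 45.6 CPM, and cells without at 10.4, 29.3, 37.6 and 144. The cells without were higher in each of the 4 libraries, with CLP the closest. They held 39 of 65, 79 of 117, 141 of 528 and 540 of 832 Cxcl5 UMIs, and so the smaller part in CLP. They made up 45.4% of the class in CLP plus stimulation and 22.7% to 30.4% in the other libraries. Cxcl1 did not divide in this way, at 1719 and 1849 CPM with and without those genes in CLP plus stimulation. Cells that held a Cxcl5 UMI stood at 2476, 2690, 2621 and 2675 CPM for Cxcl1, against 760, 1116, 1107 and 1640 in the rest, so Cxcl1 in them was at nearly the same level in all 4 libraries. Their median depth was 4402, 7815, 11379 and 9809 UMIs, against 4479, 7678, 8692 and 7712 in the rest. Both splits were made after the data were seen. Macrophage-like cells held 0, 9, 3 and 96 UMIs of Cxcl5, the 0 allowing up to 0.0757% of cells, and in CLP plus stimulation 40 of the 96 came from 1 cell. Among unclassed cells of that library 1 cell held 93 of 140.

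Cxcr2, the receptor, marked neutrophil-like cells, which held 64.9%, 69.4%, 85.7% and 61.4% of its UMIs. It gave 37, 150, 287 and 137 UMIs there, or 200 CPM in control, 305 in sham, 183 with CLP and 63.7 with CLP plus stimulation. CLP plus stimulation stood below each of the others and sham stood highest, while the intervals of control (141 to 276) and CLP (163 to 206) overlapped. Log2 ratios were 0.60 for sham over control (0.08 to 1.17), -0.74 for CLP over sham (-1.03 to -0.44) and -1.52 for CLP plus stimulation over CLP (-1.83 to -1.23), so from sham to CLP plus stimulation it was 4.79-fold lower. The share of neutrophil-like cells with a Cxcr2 UMI was 24.8%, 52.0%, 59.2% and 29.5%, and 18.8%, 27.3%, 18.0% and 4.91% after thinning. The unthinned share was thus highest in CLP while the level was not, and the median depth of these cells was 2607 UMIs in sham and 6270 in CLP. In cells with neither Camp nor Ltf it stood at 212, 305, 228 and 43.7 CPM, and in cells with either at 172 in CLP and 68.1 in CLP plus stimulation. The lower level in CLP plus stimulation was therefore present in both kinds of cell, while CLP over sham narrowed to -0.41. Macrophage-like cells held 12, 26, 4 and 5 UMIs, at most 1.37 CPM. In CLP plus stimulation 15 further UMIs came from 1 T or NK cell-like cell. In that library the ligands of macrophage-like, fibroblast-like and endothelial-like cells were at their highest and the receptor in neutrophil-like cells at its lowest.

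**Figure D5:**
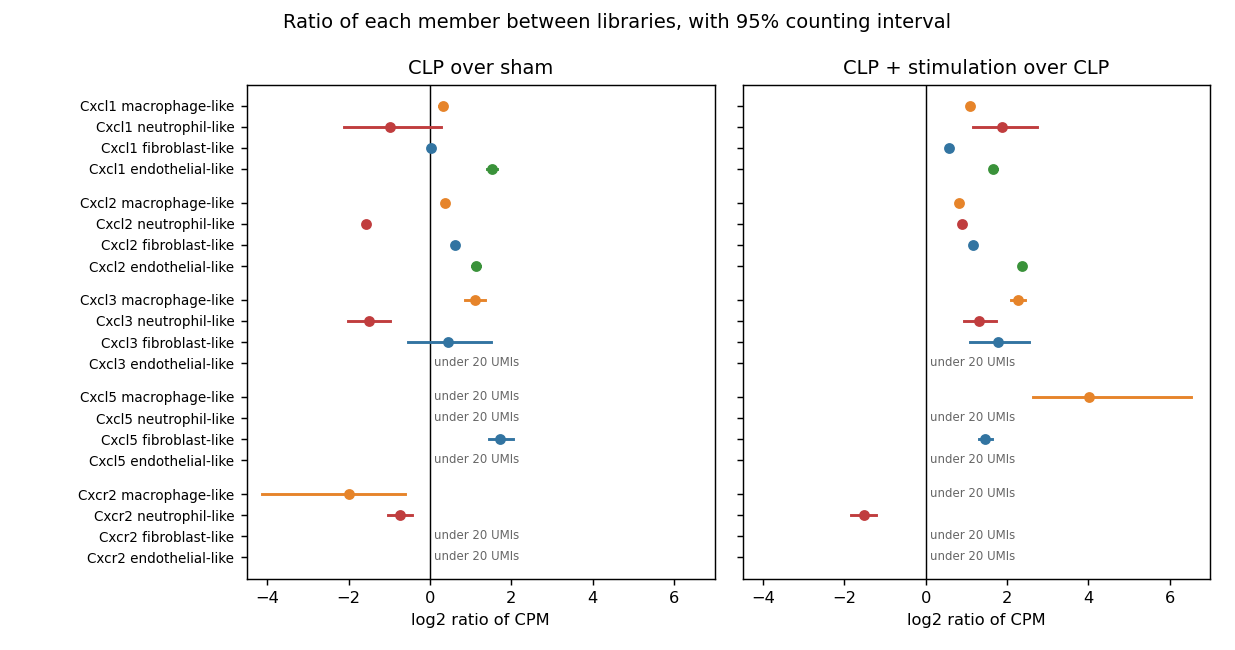
Log2 ratio of CPM between libraries for each member and class, with 95% counting intervals, for CLP over sham and CLP plus stimulation over CLP. Cxcr2 in neutrophil-like cells lies below 0 in both panels (-0.74 and -1.52), and Cxcl1 in endothelial-like cells lies above 0 in both (1.53 and 1.66).

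In all, 8 gene lists of the pathway were described by the counts of their genes with at least 20 UMIs, beside the median log2 ratio over all genes of the class. Of the NF-kappaB subunits and feedback targets, 6 of 13 were at least 2-fold higher in endothelial-like cells in CLP over sham, against 4.62% of genes. The median was 0.94 (all genes -0.14), led by Nfkbia at 1.87 and Bcl3 at 1.84, both inhibitors or modulators of NF-kappaB. Again 6 of 13 were at least 2-fold higher in CLP plus stimulation over CLP, against 9.20% of genes. The median was 0.92 (all genes -0.14), led by Tnip1 at 2.34 and Tnfaip3 at 1.51, which restrain the pathway. In macrophage-like cells CLP over sham the list had a median of -0.10 and a mean of 0.09 (all genes -0.24). Of its genes, 1 of 13 was at least 2-fold higher, against 5.06% of all genes. All 13 stood above 0 there in CLP plus stimulation over CLP, with a median of 0.34 (all genes 0.05, of which 53.0% were higher). In neutrophil-like cells 11 of 13 were lower in CLP than in sham (median -0.41, all genes -0.10, of which 45.1% were higher). There all 13 were higher in CLP plus stimulation than in CLP (median 0.89, all genes 0.29, of which 66.8% were higher). Both are the directions of Cxcl2 in that class. In fibroblast-like cells the list had medians of 0.36 and 0.35 in those comparisons (all genes -0.09 and -0.22).

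The second list holds the cytokines that induce these ligands and their receptors. In neutrophil-like cells all 11 measured genes were lower in CLP than in sham (median -0.47, all genes -0.10, of which 45.1% were higher), with Tlr2, a receptor for bacterial lipoprotein, at -1.84 and Il1b at -1.68. Against CLP, 9 of 12 were higher in CLP plus stimulation (median 0.61, all genes 0.29), near the 66.8% of all genes that were higher, with Il1a at 2.22 and Il1b at 1.42. In macrophage-like cells 3 of 14 were at least 2-fold higher in CLP than in sham, against 5.06% of genes (median 0.40, all genes -0.24), led by Traf3ip2, the adaptor of the interleukin 17 receptor, at 1.72, while Tnf stood at -0.93. Against CLP, 5 of 14 in CLP plus stimulation stood at least 2-fold higher, against 8.72% of genes (median 0.81, all genes 0.05), led by Il1r1 at 2.57 and Il1a at 1.78, with Tnf at -0.50. Of 8 genes of mRNA turnover, 4 were higher in macrophage-like cells in CLP over sham, where 36.0% of all genes were higher (median -0.03, all genes -0.24). None was 2-fold apart, against 5.06% of genes at least 2-fold higher and 18.0% lower. There Zfp36, which binds AU-rich elements and speeds decay, stood at -0.77. In fibroblast-like cells Zfp36 stood at -0.65 in CLP over sham, and Zc3h12a, a ribonuclease that degrades inflammatory messages, at 1.26 in CLP plus stimulation over CLP. In endothelial-like cells 3 of 8 were at least 2-fold higher in CLP plus stimulation over CLP, against 9.20% of genes, namely Arid5a at 1.24, Zc3h12a at 1.03 and Hnrnpd at 1.02. Neutrophil-like cells had 1 of 8 at least 2-fold lower in each comparison, Zc3h12a at -1.47 in CLP over sham and Zfp36l2 at -1.47 in CLP plus stimulation over CLP (14.7% and 5.09% of genes).

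Of 8 genes of further CXC chemokines, chemokine receptors and scavengers, not all of this branch, 4 were measured in macrophage-like cells. In macrophage-like cells Pf4, a platelet-type CXC chemokine that macrophages also make, stood at -1.78 in CLP over sham and 1.65 in CLP plus stimulation over CLP, and Ppbp, of the same kind, at -1.13 and 1.99. Endothelial-like cells showed Ackr3, a scavenging receptor for Cxcl12, at 2.56 in CLP plus stimulation over CLP. Of the genes by which endothelium captures neutrophils, all 8 were higher in CLP than in sham in endothelial-like cells (median 0.64, all genes -0.14, of which 37.2% were higher). At least 2-fold higher were 3 of them, against 4.62% of genes, led by the integrin ligands Vcam1 at 2.84 and Icam1 at 2.26. In CLP plus stimulation over CLP 5 of 8 were higher (median 0.16, all genes -0.14, of which 43.6% were higher), with Selp, a selectin that slows passing neutrophils, at 2.37 and Icam2 at -1.82.

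On the receptor side, of 20 genes of CXCR2 signalling and chemotaxis, 19 were measured in neutrophil-like cells in CLP over sham. There 6 were at least 2-fold lower, against 14.7% of genes, among them Arrb1, which uncouples the receptor, at -2.01 and Prex1, an activator of Rac, at -1.84 (median -0.26, all genes -0.10). In CLP plus stimulation over CLP 1 of 20 was at least 2-fold higher, Pik3r5 at 1.21, against 14.5% of genes. Another 1 was at least 2-fold lower, Gng2 at -2.22, against 5.09% of genes (median 0.23, all genes 0.29). Of the retention and egress genes 3 of 4 measured were at least 2-fold lower in CLP than in sham, against 14.7% of genes, with Csf3r at -3.11 and Itga4 at -2.93. The other, Csf3, the ligand of Csf3r, was at least 2-fold higher at 1.96 (from 3 and 43 UMIs), against 12.7% of genes. Cxcr4, the receptor that holds neutrophils in marrow, stood at 265, 358, 93.2 and 45.1 CPM. Immediate early genes are genes whose level moves with tissue dissociation. Their medians in CLP over sham were -0.51 in macrophage-like, -0.45 in fibroblast-like, 0.12 in endothelial-like and -0.10 in neutrophil-like cells (all genes -0.24, -0.09, -0.14 and -0.10). For CLP plus stimulation over CLP their medians were 0.25, 0.23, 0.16 and -0.12 (all genes 0.05, -0.22, -0.14 and 0.29). Outside the neutrophil-like class that is the direction of the ligands in the second comparison, and the part of dissociation in the result was not tested.

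Across 36 combinations of class and library with at least 50 cells, the genes most like each member were named by Spearman correlation of log2(CPM + 5). Points share libraries and depth, so these are descriptions. Cxcl2 was most like Cd14 (0.94), the endotoxin co-receptor, followed by Wfdc17, Pirb, Slc15a3 and Lilr4b, all known from myeloid cells. Cxcl3 was most like Clec4e (0.84), a C-type lectin receptor, then Il1rn, Ccrl2, Cxcl2 and Clec4d. Cxcl1 was most like Ctsl (0.87), a lysosomal protease, then Sash1, Pmp22, Spred1 and Dbn1. Cxcl5 was most like Aldh3a1 (0.73), then Cyp2e1, Anxa8, Adgrg2 and Cxcl14. Cxcr2 was most like Cd80 (0.79), then Dhrs9, Ipcef1, Trem3 and Aqp9. Among the members themselves Cxcl2 and Cxcl3 were alike (0.82), Cxcl1 and Cxcl5 less so (0.60), and Cxcl1 and Cxcl2 were not (-0.08).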

How the data were processed

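Droplet libraries of heart cells were prepared as Chromium Single Cell 3' v3 libraries (per the labels' protocols). The authors' deposited matrices hold whole UMI counts per gene and barcode, written by Cell Ranger 5.0.0 per the file headers, and STAR and mm10 are named in the submitters' processing notes. From these counts, barcodes were kept when they had 500 or more UMIs, 200 or more genes and no more than 20% mitochondrial UMIs, and 611 to 2039 doublet-like barcodes per library (6.99% to 12.8%) were removed by Scrublet score within scanpy 1.11.5. A cell was classed when it held at least 4 markers and 40% of a class's list, leading the next class by 20 percentage points. Those thresholds were settled after the data were seen. One more required marker would remove 489 of 11472 macrophage-like, 61 of 788 neutrophil-like, 196 of 8109 fibroblast-like and 327 of 7050 endothelial-like cells. Counts were summed per class and library. Log2 ratios add 0.5 counts, and intervals are exact (Poisson for CPM, Clopper-Pearson for shares, conditional binomial for ratios). Clusters (35, of which 30 were named) used 2000 variable genes, 30 components and Leiden resolution 1. The ratio script was tested on simulated data. Alternatives used edgeR 4.0.16 for TMM factors only. Genes described were all 5 members, and of each list the 2 highest and 2 lowest. The values of 1 gene of the CXCR2 signalling list are not reported here, while that list's size and medians include it. Members, lists and gates were chosen with earlier results of these data known. Positions are from GENCODE vM21 on GRCm38.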

Additional observations from a re-analysis of the deposited data

Results flagged for a closer look

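A pair of ligands went in opposite directions in different cell classes of the same libraries. For CLP over sham the log2 ratio of Cxcl2 was 0.371 in macrophage-like cells, 0.607 in fibroblast-like cells and 1.134 in endothelial-like cells, against -1.579 in neutrophil-like cells. That of Cxcl3 was 1.101 in macrophage-like and -1.5 in neutrophil-like cells, the latter from 71 and 63 UMIs. In neutrophil-like cells of at least 3000 UMIs it was only -0.199. With 1 library per group the difference between classes was not tested. Neutrophil-like cells with a UMI of Camp or Ltf made up 0.565% of the class in sham and 63.7% in CLP, and without them the Cxcl2 ratio was -0.564, still below 0. In endothelial-like and fibroblast-like cells Cxcl2 stood at 346 and 263 CPM in CLP. Of the background classes, cardiomyocyte-like cells stood above both at 1911 CPM and T or NK cell-like cells below both at 106. B cell-like cells stood at 1791 CPM with, and 188 CPM without, the 1 cell that held most of their Cxcl2.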

How the results depend on the processing

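No paired analysis was possible because each group has 1 library, and for the same reason no replicate could be left out. For the 10 ratios of each gene in its leading class (Cxcl1 and Cxcl5 in fibroblast-like, Cxcl2 and Cxcl3 in macrophage-like, Cxcr2 in neutrophil-like cells), 112 values were computed under other settings: 78 stayed within the counting interval, 34 moved outside it and 0 changed the sign of a ratio whose interval excluded 0. For 8 ratios in other classes 64 of 92 values stayed and 28 moved, with the same rule giving 0 sign changes. The cause of each move was not tested. With each cell thinned to 1000 UMIs the ratios of CLP over sham were -0.109 for Cxcl1, 0.568 for Cxcl2, 1.620 for Cxcl3 and 0.797 for Cxcl5, and those of CLP plus stimulation over CLP were 0.549 for Cxcl1, 0.663 for Cxcl2, 2.038 for Cxcl5 and -2.063 for Cxcr2. As a mean over cells, CLP over sham gave -0.078 for Cxcl1, 0.592 for Cxcl2 and 1.233 for Cxcl5, and CLP plus stimulation over CLP gave 0.544 for Cxcl1, 0.665 for Cxcl2, 2.066 for Cxcl3 and 1.633 for Cxcl5. With TMM factors CLP over sham gave 0.128 for Cxcl1 and 0.576 for Cxcl2, and CLP plus stimulation over CLP gave 0.741 and 0.832. The sign of Cxcl1 in fibroblast-like cells, CLP over sham, thus depended on the setting, between -0.109 and 0.128. Cxcl2 in macrophage-like cells, for CLP over sham and CLP plus stimulation over CLP in turn, was 0.398 and 0.812 without doublet removal, 0.329 and 0.840 at most 10% mitochondrial UMIs, 0.436 and 0.839 with named clusters as classes, 0.353 and 0.845 with a stricter gate, and 0.345 and 0.842 in cells of at least 3000 UMIs. Without shared barcodes the second was 0.811. Leaving out the cell with the most Cxcl5 gave 1.625 for CLP plus stimulation over CLP. Cxcr2 in CLP over sham was -0.437 with named clusters and -0.413 without Camp or Ltf cells, and -2.352 in CLP plus stimulation over CLP without them. The settings without Camp or Ltf cells, without the top cell and with at least 3000 UMIs were chosen after the data were seen. Without a low-value filter and on log2(CPM + 1), 0 of the 5 genes most like Cxcl5 were kept, and all 5 for each other member. Cells free of other classes' top 3 markers were too few to give values in most classes (at least 20 were required). Macrophage-like Cxcl2 in such cells was 11720 CPM in control (152 cells), 8696 in sham (66) and 31964 in CLP plus stimulation (40). Low counts limit the precision for Cxcl3, Cxcl5 and Cxcr2.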
